A study of Mus musculus with 4 samples.

Results

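The tongue of mouse embryos at embryonic stage E14.5 (T) was compared with the lateral part of the mandibular arch at E11.5 (LMA), 1 array each, out of 4 arrays made from 4 tissues. A gene entered the comparison where its probe was well above background on at least 1 of the 2 arrays, which held for 17821 of 26341 genes with a named probe. All tissues came from ICR mice, an outbred stock, with no treatment or altered gene, and each RNA was a pool taken in 1 tube: 4 embryos for T (median tongue), 4 for LMA, 4 for LLS (the lateral lingual swellings, E11.5) and 12 for MMA (the median mandibular arch, E9.5). T and LMA differ in stage and in region at once, and these cannot be told apart. LLS shares its stage with LMA, and the LLS and MMA values are given beside the pair for that reason.

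The mandibular arch is a bud of neural crest mesenchyme around a core of mesoderm, covered by surface ectoderm and, on its inner side, by pharyngeal endoderm. Its lateral part lies outside the lingual swellings, and homeobox genes of the Msx, Dlx, Alx and Hand families pattern arch mesenchyme along the axes of the future jaw. The tongue grows from the floor of the same arch: its muscle comes from occipital somites, its connective tissue from neural crest, and its surface becomes a layered epithelium with taste papillae. Whole tissues were measured, so fewer cells of a type and less RNA per cell cannot be told apart.

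Levels are log2 of the processed signal of a probe minus the 75th percentile of its array, so a level of 0 equals that percentile (a signal of 491 in T and 507 in LMA). Levels compare a probe across arrays and not genes with each other. A difference is the T level minus the LMA level, and a difference of 1 is 2-fold. A probe not well above background was set to no less than the lowest level well above background on its array, which was -4.20 in T, -4.66 in LMA, -4.42 in LLS and -4.25 in MMA, and a difference resting on that value is a bound, written as at least. Each tissue has 1 array and no replicate, which limits the precision: no test was made, and genes were counted by size alone. Probes printed 10 times on each array gave a spot SD of 0.085 for a difference (294 probes), which leaves out the spread between pools. From the error that the scanner software gives for each spot, combined over the 2 arrays, a log2 error of each difference was formed. It had a median of 0.204 over genes above background on both arrays and is not a spread between replicates. Signals were well above background for 58.9% of spots in T and 62.9% in LMA, and 0 spots were saturated.

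Of the 17821 genes, 2478 (13.9%) had a level in T at least 2-fold above that in LMA and 1286 (7.22%) a level in LMA at least 2-fold above that in T, while 14057 lay within 2-fold. The larger the difference, the more the counts leaned to T: 1172 against 258 genes at 4-fold, 232 against 29 at 16-fold and 49 against 6 at 64-fold. Of the 2-fold genes, 658 higher in T and 215 higher in LMA were bounds. The floor lies lower in LMA (-4.66) than in T (-4.20). A bound toward T therefore reaches 2-fold from a lower level than a bound toward LMA, which adds to the lean. Over genes above background on both arrays, 1820 were higher in T and 1071 higher in LMA by 2-fold or more. Genes of skeletal muscle and lining epithelium were among the largest differences toward T, and jaw homeobox genes and embryonic globins among those toward LMA. The shares over all genes, 13.9% higher in T and 7.22% higher in LMA, are to be read beside every list count below.

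**Figure D1:**
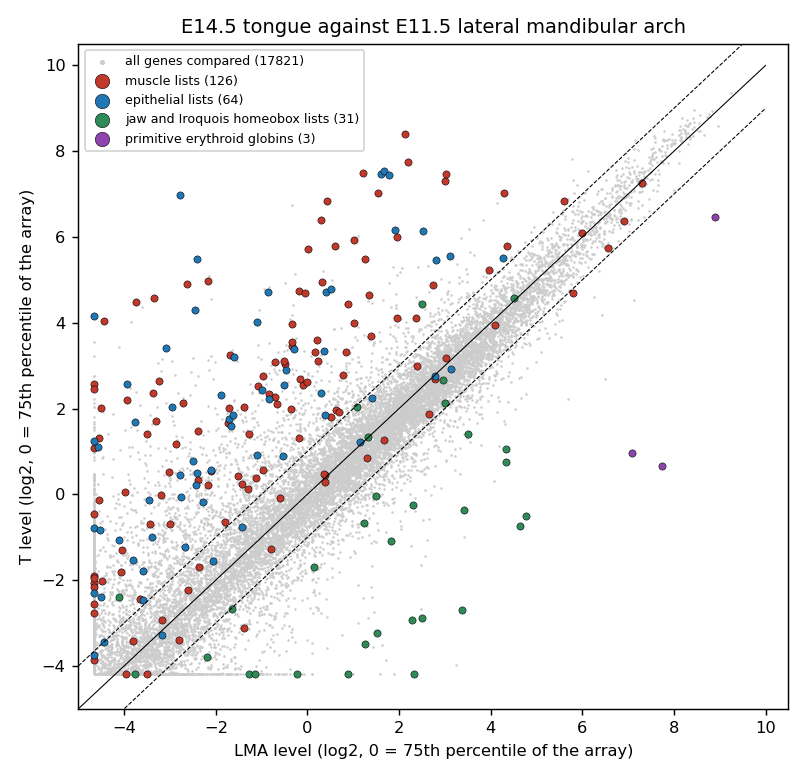
Level in T (vertical) against level in LMA (horizontal), both log2 with 0 at the 75th percentile of the array, for the 17821 genes compared (grey) and the members of 4 sets of lists (coloured). The solid line marks equal levels and the dashed lines 2-fold. Genes piled at -4.20 or -4.66 were not well above background on that array. Most muscle and epithelial genes lie above the lines, while most jaw and Iroquois homeobox genes and the embryonic globins lie below.

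Of 126 muscle genes compared, drawn from 6 lists of contractile, membrane and metabolic genes, 100 (79.4%) were higher in T by 2-fold or more, against 13.9% of all genes compared, and 2 lower by 2-fold or more against 7.22%. Their median difference was 2.74, beside -0.04 over all genes compared. Of the 100, 88 were above background on both arrays. The lists here and below were chosen with earlier results of these data known, so contrasts with all genes are descriptions and not tests. The regulators of the muscle lineage differed less: of 24 regulators compared, 12 were higher in T by 2-fold or more and 3 lower, and the median was 0.93.

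Pax3 and Pax7 are the paired-box factors of muscle progenitors, Pax3 the earlier in most embryonic muscle. Pax3 had levels of -3.47 in T, 0.09 in LMA and -0.19 in LLS (not well above background in MMA), a difference of -3.56. Pax7 had levels of 0.46 in T, -1.31 in LMA and -2.10 in LLS (not well above background in MMA), a difference of 1.77. The pair thus differed in opposite directions, Pax3 low in T and Pax7 high in T. Of the basic helix-loop-helix factors, Myod1, which commits cells to the lineage, differed by only 0.61, with levels of 1.46 in T, 0.85 in LMA and -0.08 in LLS (not well above background in MMA). Myog, the factor of terminal differentiation, had levels of 4.56 in T, 3.06 in LMA and 1.57 in LLS (not well above background in MMA), a difference of 1.50. Myf6 was the regulator with the largest difference, 5.12, with levels of 1.03 in T and -4.09 in LMA (not well above background in LLS and MMA). Myod1, Myog and Myf6 were all highest in T, and Myod1 was 1 of 9 regulators within 2-fold. The fusion genes Mymk and Mymx, whose products let myoblasts merge into fibres, were 2.90 and 1.93 higher in T, and Mstn, which encodes the growth-limiting factor myostatin, 2.96 higher. Six4 (-1.39, with -1.71 to -0.24 from its other probes) and Tcf21 (-2.70), a helix-loop-helix factor of branchiomeric muscle and mesenchyme, were lower in T. Eya1 gave -0.08 with its brightest probe, but its other probes gave -3.60 to -2.65, and Smyd1 gave 0.32 with its brightest probe and 2.53 with another.

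The thick filament list had the highest median of all lists, 3.67, with 20 of 22 genes higher in T by 2-fold or more. Its members show which myosins the E14.5 tongue carried. Myh3, the embryonic heavy chain, had levels of 7.31 in T, 3.0 in LMA and 0.39 in LLS (not well above background in MMA), a difference of 4.31. Myh8, the perinatal heavy chain, had levels of 5.94 in T, 1.01 in LMA, -0.64 in LLS and -3.41 in MMA, a difference of 4.92. Both chains were far higher in T than on any other array. Myh7, the slow chain, was 3.61 higher in T. Of the adult fast chains, Myh4 was 1.21 higher from low levels (-2.44 in T and -3.64 in LMA (not well above background in LLS and MMA)), and Myh1 was the thick filament gene at least 2-fold lower in T, at levels of -3.11 in T, -1.39 in LMA and -3.37 in LLS (not well above background in MMA). Sequences of myosin heavy chain genes are close to each other, and whether a probe also binds a relative was not tested. The light chains Myl4 (embryonic), Myl1 (fast) and Myl3 (slow and ventricular) were 6.28, 4.44 and 4.64 higher. Mylpf, the fast regulatory light chain, was 6.27 higher with its brightest probe and 0.43 with another. The M-band gene Myom2 was 7.92 higher, among the 12 largest differences of genes above background on both arrays, with 2.94 from its other probe. The giant spring protein gene Ttn was 3.56 higher, with 0.27 to 3.58 from its other probes.

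In the thin filament list the median was 2.97, and 15 of 21 genes were higher in T by 2-fold or more and 0 lower. Acta1, the skeletal alpha-actin, had levels of 5.79 in T, 0.61 in LMA, -1.21 in LLS and -4.10 in MMA, a difference of 5.18. Actc1, the cardiac alpha-actin that also serves embryonic skeletal muscle, had levels of 7.02 in T, 4.28 in LMA, 2.77 in LLS and -1.17 in MMA, a difference of 2.73. Each actin had its highest level in T and its lowest in MMA. The fast troponins Tnnt3, Tnnc2 and Tnni2 were 6.10, 5.55 and 5.47 higher in T, and the slow troponins Tnni1 and Tnnt1 4.03 and 1.22 higher. Tnni3, the cardiac inhibitory troponin, was low on all arrays (-3.39 in T, -2.81 in LMA, -2.20 in LLS and -3.74 in MMA). Tpm3, a tropomyosin used in many cell types, differed by -0.53.

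Z-disc and cytoskeletal genes had a median of 3.43, 21 of 23 being higher in T by 2-fold or more. Csrp3, which encodes the muscle LIM protein of the Z-disc, had levels of 4.47 in T and -3.75 in LMA (not well above background in LLS and MMA). Its difference was 8.23 or 300-fold, and 6.80 with normexp background. Ldb3, which anchors alpha-actinin, had levels of 2.01 in T and -4.50 in LMA (not well above background in LLS and MMA), a difference of 6.52. Both were thus measured only at the dim end in LMA and were bright in T. The stretch-responsive ankyrin repeat genes Ankrd2 and Ankrd1 were 6.14 and 4.84 higher, the calsarcin gene Myoz2 5.87 and the intermediate filament gene Des 2.35. Hspb7, a small heat shock protein of muscle, was at least 5.74 higher.

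Genes that couple membrane depolarisation to calcium release had a median of 2.69, 18 of 22 being higher in T by 2-fold or more. Cav3, the caveolin of the muscle membrane, was 7.15 higher, Sln, an inhibitor of the calcium pump, 6.40, and Casq2, which binds calcium in the reticulum, 5.72. Trdn, which ties calsequestrin to the release channel, was at least 7.10 higher. Cacna1s, the voltage sensor, had levels of 2.76 in T, -0.97 in LMA, -3.66 in LLS and -3.95 in MMA, a difference of 3.74. Atp2a2, the calcium pump of heart and slow muscle that most cells also carry, differed by -0.41. The named genes of striated muscle were thus higher in T, while the pump used by most cells stayed within 2-fold.

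At the neuromuscular junction the median was 2.30 (1.46 with normexp background), with 15 of 18 genes higher in T by 2-fold or more. Chrng, the fetal subunit of the muscle acetylcholine receptor, had levels of 3.68 in T, 1.40 in LMA and 0.09 in LLS (not well above background in MMA), a difference of 2.29. Chrne, the subunit that replaces it after birth, stayed near the floor, at -3.42 in T, -3.80 in LMA, -3.16 in LLS and -3.31 in MMA. The subunits Chrna1 and Chrnd were 2.89 and 2.78 higher. The clustering genes Musk and Rapsn were 1.42 and 1.50 higher, and the collagen tail of the esterase, Colq, 3.55. Utrn, the relative of dystrophin found in many cells, differed by 0.59, and Sgcd by -0.48.

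Among genes of muscle energy metabolism 11 of 20 were higher in T and 1 lower by 2-fold or more. Their median was 1.91, but 1.20 with normexp background and 0.88 over members above background on both arrays. The higher ones were isoforms of striated muscle. Cox8b and Cox6a2, muscle subunits of cytochrome oxidase, were 8.47 and 7.55 higher. Ckm, the muscle creatine kinase, was at least 7.22 higher, while Ckb, the brain form, differed by -0.10. Eno3, the muscle enolase, was 2.16 higher, while Eno1, the general form, gave -0.84 with its brightest probe and -1.41 to -0.65 with others. Ldhb was the member at least 2-fold lower in T (-1.12).

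RefSeq promoters (250 bases before to 50 after the start, build GRCm38.p6, first listed start of each gene) were matched by symbol for 13478 of the 17821 genes compared and for 74 of the 100 muscle genes higher in T; 2550 of the 13478 have several starts. Both strands were searched, and matches of different motifs were counted separately even where they overlap. The motif CANNTG, which helix-loop-helix factors such as Myod1 and Myog can bind, was present in 87.8% of the 74 muscle promoters and in 65.6% of all matched promoters, and at least 2 copies were present in 58.1% and 31.4%. It was also present in 642 of the 834 promoters of genes at least 4-fold higher in T and in 76.9% of 26 epithelial promoters, with at least 2 copies in 44.6% and 46.2%, so that shares above that of all promoters were not seen in muscle genes alone. The MEF2 site was found in 5 of the 74 (6.76%) and in 0.579% of all. The CArG box, the site of serum response factor, was found in 8 of the 74 (10.8%) and in 1.44% of all. A match is a run of letters and shows no binding. The 250 bases before the start are printed for the 3 muscle genes with the largest difference among those with a MEF2 site there and for the 2 with the largest among those with a CArG box, in capitals, to show where the motif stands in genes far higher in T.
Myoz2: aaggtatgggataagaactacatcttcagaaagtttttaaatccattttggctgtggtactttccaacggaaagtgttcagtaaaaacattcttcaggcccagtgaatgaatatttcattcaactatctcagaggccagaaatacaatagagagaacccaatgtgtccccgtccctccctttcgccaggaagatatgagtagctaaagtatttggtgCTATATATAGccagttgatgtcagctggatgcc
Ttn: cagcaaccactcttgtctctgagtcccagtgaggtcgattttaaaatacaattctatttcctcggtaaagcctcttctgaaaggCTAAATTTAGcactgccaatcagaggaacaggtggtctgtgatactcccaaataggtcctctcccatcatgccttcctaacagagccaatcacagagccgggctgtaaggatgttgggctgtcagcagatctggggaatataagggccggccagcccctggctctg
Mybpc3: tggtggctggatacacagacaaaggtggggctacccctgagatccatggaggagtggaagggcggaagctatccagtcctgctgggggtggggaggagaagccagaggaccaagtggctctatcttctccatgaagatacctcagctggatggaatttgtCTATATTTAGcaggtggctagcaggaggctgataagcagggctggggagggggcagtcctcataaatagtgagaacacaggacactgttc
Ldb3: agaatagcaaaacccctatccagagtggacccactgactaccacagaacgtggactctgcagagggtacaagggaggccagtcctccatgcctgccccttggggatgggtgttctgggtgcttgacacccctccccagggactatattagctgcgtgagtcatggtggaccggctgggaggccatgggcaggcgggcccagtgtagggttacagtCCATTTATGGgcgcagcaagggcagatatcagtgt
Acta1: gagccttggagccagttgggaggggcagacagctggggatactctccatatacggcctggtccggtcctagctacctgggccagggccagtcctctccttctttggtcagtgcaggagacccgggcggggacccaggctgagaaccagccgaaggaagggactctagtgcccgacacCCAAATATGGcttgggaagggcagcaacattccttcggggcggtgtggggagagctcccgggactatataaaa

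The Myoz2 sequence is chr3:123034988-123035237 on the minus strand, and its MEF2 site begins 33 bases before the start. The Ttn sequence is chr2:76982548-76982797 on the minus strand, and its MEF2 site begins 166 bases before the start. The Mybpc3 sequence is chr2:91117894-91118143 on the plus strand, and its MEF2 site begins 90 bases before the start. The Ldb3 sequence is chr14:34588682-34588931 on the minus strand, and its CArG box begins 35 bases before the start. The Acta1 sequence is chr8:123894776-123895025 on the minus strand, and its CArG box begins 73 bases before the start. Each sequence is written 5′ to 3′ on the strand of its gene. Mybpc3, which encodes the cardiac form of myosin-binding protein C, was 2.75 higher in T at levels of -1.29 in T, -4.04 in LMA and -1.89 in MMA (not well above background in LLS).

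Several markers of heart muscle moved with these lists, and 6 of the 15 cardiac markers listed are themselves members of other lists. Of the 13 compared, 8 were at least 2-fold higher in T and 2 lower, and 12 were above background in T and 10 in LMA. Their summed signal was 71.9 times the 75th percentile in T and 11.2 times in LMA. Myl2 (5.85), Tnnt2 (4.74) and Smpx (6.12) are also made by skeletal muscle. The atrial peptide gene Nppa was close to the floor, at -4.03 in T (not well above background in LMA, LLS and MMA), and the cardiac T-box gene Tbx5 was at least 3.82 lower in T. The part of heart tissue in the muscle result was not tested.

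The lining epithelium was the second large difference. Of 64 epithelial genes compared from 3 lists, 55 (85.9%) were higher in T by 2-fold or more, against 13.9% of all genes compared. By that much 0 were lower, against 7.22%. The median was 3.16, and 50 of the 55 were above background on both arrays. Krt6a, a keratin of stratified and stressed epithelium, had levels of 6.97 in T, -2.78 in LMA, 0.58 in LLS and -3.57 in MMA. Its difference was 9.75 or 860-fold with a log2 error of 0.225, the largest of all genes above background on both arrays. With normexp background the difference was 8.78. Krt6a was bright in T, of middling level in LLS and dim in LMA and MMA. Krt17 was 7.90 higher. The basal pair Krt5 and Krt14 were 5.67 and 5.85 higher, and Krt15, a keratin of basal cells, 5.86. Krt13 and Krt4 form the pair of suprabasal cells of non-cornified mucosa, and they were at least 5.90 and 3.04 higher, Krt4 at the low levels of -1.08 in T and -4.12 in LMA (not well above background in LLS and MMA). Krt8 and Krt18, the pair of simple epithelium, followed another course. Krt8 had levels of 3.35 in T, 0.35 in LMA, 3.73 in LLS and 4.99 in MMA, a difference of 2.99. Krt18 had levels of 5.46 in T, 2.80 in LMA, 4.85 in LLS and 6.48 in MMA, a difference of 2.65. For both, LMA alone was low, and MMA at E9.5 was higher than T. Krt10, a keratin of cornifying skin, differed by 0.09. In all, 12 of 16 keratins compared were higher in T by 2-fold or more. Krt6a has a near copy, Krt6b, and whether its probe binds both was not tested.

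All 25 genes of epithelial junctions and basement membrane were higher in T, 23 of them by 2-fold or more, and the median was 3.28. Lamb3 and Lama3, which encode chains of a laminin that anchors basal cells, were 6.52 and 5.45 higher, and the hemidesmosome genes Itgb4 and Col17a1 5.13 and 4.79. Pkp1, a desmosomal plaque protein, was 6.74 higher and Dsp, desmoplakin, 4.31. Cdh1, the epithelial cadherin, had levels of 1.84 in T, -1.62 in LMA, 1.29 in LLS and 0.17 in MMA, a difference of 3.46. Epcam had levels of 0.49 in T, -2.41 in LMA, -0.02 in LLS and 0.11 in MMA, a difference of 2.90. Cdh1 and Epcam were both lowest in LMA. In MMA, Cdh1 lay about midway between T and LMA, and Epcam near T. In LLS both had levels near T. The hemidesmosome and desmosome genes above, by contrast, were at least 2-fold higher in T than in LLS.

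Among transcription and splicing factors of epithelium, 20 of 23 were higher in T by 2-fold or more and the median was 3.07. Foxa2, a forkhead factor of endoderm, had levels of 4.16 in T, 2.74 in LLS and 1.13 in MMA (not well above background in LMA), so that its difference was at least 8.82. Its relative Foxa1 had levels of 3.40 in T, -3.08 in LMA, 2.75 in LLS and -0.65 in MMA, a difference of 6.48. Sox2, needed for taste bud and tongue epithelium, had levels of 2.04 in T, -2.96 in LMA, 1.21 in LLS and 0.58 in MMA, a difference of 5.0. All 3 were dim in LMA and well above it in LLS of the same stage. Ehf was at least 5.67 higher in T, Elf5 at least 3.87, Klf4 4.28 and Klf5 4.21. The splicing regulators Esrp1 and Esrp2 were 3.26 and 3.31 higher. Trp63, the master factor of stratified epithelium, gave -0.02 with its brightest probe, but its 3 other usable probes gave 3.52 to 3.87. Hes6 also stayed within 2-fold (-0.21).

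The other probes of a gene offer a check within the arrays. Of the 832 genes higher in T that had another usable probe, all other probes gave the same direction in 88.1% and at least 2-fold in 56.9%. For the 518 such genes higher in LMA the shares were 82.6% and 43.8%.

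Of 9 markers of pharyngeal endoderm, 6 were higher in T and 1 lower by 2-fold or more. The median was 2.12 (0.92 with normexp background). Their summed signal was 39.1 times the 75th percentile in T, 1.29 in LMA, 16.3 in LLS and 5.18 in MMA. Such a sum follows its brightest members and not the list as a whole. Foxa1 and Foxa2 belong to this list too, as does Pax9, a paired-box factor of endoderm and tooth mesenchyme, with levels of 2.84 in T, -2.55 in LMA, 0.21 in LLS and -3.26 in MMA and a difference of 5.39. Nkx2-3 was 4.34 higher in T. The part of tissue type and of dissected area in the epithelial difference was not tested.

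**Figure D2:**
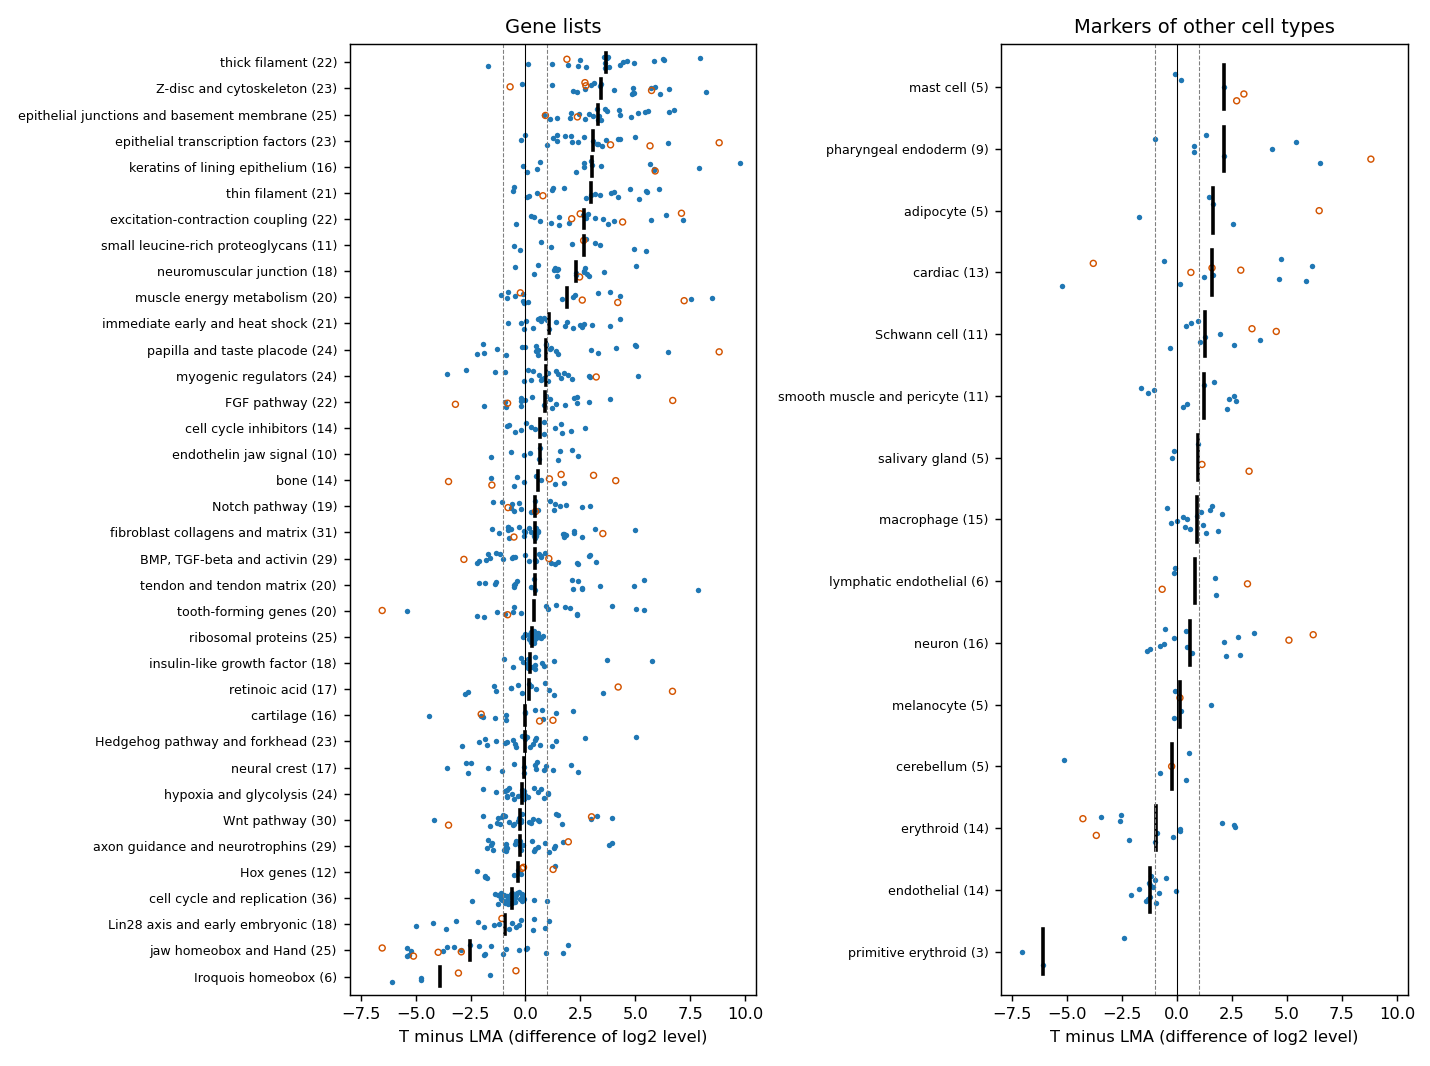
Difference of log2 level, T minus LMA, for each gene compared in 36 gene lists (left) and 15 marker lists (right), with the number compared in brackets. Filled points were above background on both arrays, open points are bounds, black bars are medians, and dashed lines mark 2-fold; the thick filament list has the highest median (3.67) and the 3 primitive erythroid globins the lowest (-6.12).

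The jaw homeobox and Hand genes ran the other way. Of 25 compared, 18 were lower in T by 2-fold or more against 7.22% of all genes, 2 were higher, and the median was -2.54. Msx1 and Msx2 are homeobox factors of arch mesenchyme and tooth buds. Msx1 had levels of -0.74 in T, 4.65 in LMA, 1.58 in LLS and 4.72 in MMA, a difference of -5.38. Msx2 had levels of 2.32 in LMA, -1.21 in LLS and 3.42 in MMA (not well above background in T), so that it was at least 6.52 lower in T, with 6.44 from its other probe. The early and lateral arches were high, LLS lower and T lowest. Alx4 and Alx1, aristaless-like factors of craniofacial mesenchyme, were 5.28 and at least 5.10 lower. Alx4 had levels of -0.51 in T, 4.77 in LMA, 3.27 in LLS and -0.25 in MMA, high on both E11.5 arrays. Hand1 and Hand2, helix-loop-helix factors of the distal arch, were 5.22 and 2.92 lower. Dlx5, a distal-less factor that sets the lower jaw apart from the upper, had levels of -0.23 in LMA, -2.08 in LLS and 1.42 in MMA (not well above background in T) and was at least 3.97 lower. Its neighbour Dlx6 was at least 2.92 lower, Dlx2 1.84 and Dlx1 1.04. The paired-related factors Prrx1 and Prrx2 were 3.59 and 3.27 lower, and Gsc, goosecoid, 3.77.

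Some members of the family departed from this. Dlx4 (1.71) and the T-box gene Tbx3 (1.95) were at least 2-fold higher in T. The LIM homeobox genes Lhx6 (-0.30) and Lhx8 (0.03), made in the oral mesenchyme, stayed within 2-fold, as did Dlx3 (0.96). The T-box gene Tbx2 had levels of -0.24 in T, 2.30 in LMA, -0.63 in LLS and 0.35 in MMA, with LLS near T and LMA alone high.

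Iroquois homeobox genes lie in 2 gene clusters and act in regional patterning. Of the 6 compared, 5 were lower in T by 2-fold or more, and the median was -3.90. Irx1 had levels of -2.69 in T, 3.37 in LMA, -1.20 in LLS and 0.04 in MMA, a difference of -6.06. Irx2 had levels of -3.50 in T, 1.26 in LMA, -3.60 in LLS and -2.10 in MMA, a difference of -4.76. Irx3 had levels of -3.23 in T, 1.52 in LMA, -2.94 in LLS and 0.78 in MMA, a difference of -4.75. Irx5 was at least 3.05 lower and Irx4 1.60 lower. For all 5, LLS was nearer to T than to LMA, although it shares the stage of LMA, while of the 18 jaw homeobox and Hand genes lower in T, LLS was nearer to T for 3 and nearer to LMA for 15.

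The motif TAATTA, a core that many homeodomain proteins can bind, was present in 3 of the 13 promoters matched among the 23 jaw and Iroquois genes lower in T and in 3.15% of all matched promoters. GGGCGG, a letter run of GC-rich promoters, was present in 11 of the 13 (84.6%), in 41.9% of the muscle promoters and in 57.2% of all. The 3 promoters with TAATTA before the start are printed as examples of the jaw genes, with the motif in capitals.
Msx2: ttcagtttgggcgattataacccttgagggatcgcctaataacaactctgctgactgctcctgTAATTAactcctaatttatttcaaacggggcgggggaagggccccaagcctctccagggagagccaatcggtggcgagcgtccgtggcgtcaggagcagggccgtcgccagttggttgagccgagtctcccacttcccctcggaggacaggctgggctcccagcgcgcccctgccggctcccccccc
Prrx1: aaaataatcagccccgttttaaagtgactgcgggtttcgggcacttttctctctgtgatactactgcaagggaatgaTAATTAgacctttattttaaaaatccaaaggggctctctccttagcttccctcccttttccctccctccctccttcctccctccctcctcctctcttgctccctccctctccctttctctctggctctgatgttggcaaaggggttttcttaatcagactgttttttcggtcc
Hand2: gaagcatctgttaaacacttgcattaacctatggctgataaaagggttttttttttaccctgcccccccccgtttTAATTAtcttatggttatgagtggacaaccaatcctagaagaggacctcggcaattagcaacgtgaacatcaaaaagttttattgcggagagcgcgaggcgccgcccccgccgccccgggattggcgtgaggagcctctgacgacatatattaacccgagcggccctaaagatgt

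The Msx2 sequence is chr13:53472781-53473030 on the minus strand, and its TAATTA match begins 187 bases before the start. The Prrx1 sequence is chr1:163313651-163313900 on the minus strand, and its TAATTA match begins 173 bases before the start. The Hand2 sequence is chr8:57320733-57320982 on the plus strand, and its TAATTA match begins 175 bases before the start. The counts are small, and no binding was measured.

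Endothelin signalling switches on the lower jaw genes, but its own members were mixed: of 10 compared, 4 were higher in T and 1 lower by 2-fold or more. The ligand gene Edn1 had levels of -2.94 in T, -3.55 in LMA, -2.37 in LLS and 0.58 in MMA, a difference of 0.62. The receptor gene Ednra, of the arch mesenchyme, had levels of 1.75 in T, 3.32 in LMA, 2.87 in LLS and 1.48 in MMA, a difference of -1.57. Ednrb, the receptor of melanocyte and enteric precursors, was 2.41 higher in T. The ligand thus stayed within 2-fold and the receptors differed in opposite directions.

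Of 12 Hox genes compared, 2 were higher in T and 4 lower by 2-fold or more, beside 13.9% and 7.22% of all genes. Another 12 were above background on neither array. Hoxa2 and Hoxa3 were 1.83 and 1.85 lower, both from levels below the 75th percentile of LMA (-1.43 and -1.29). Hoxd8 was 1.33 higher with 0.36 from its other probe.

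In the Hedgehog pathway the ligand differed far more than its targets. Of 23 genes with forkhead relatives, 4 were higher in T and 5 lower by 2-fold or more, beside 13.9% and 7.22% of all genes. Shh, the ligand made by oral and papillary epithelium, had levels of 0.81 in T, -4.23 in LMA, 2.32 in LLS and 0.26 in MMA, a difference of 5.05. Ptch1, its receptor and target, had levels of 1.50 in T, 1.02 in LMA, 2.88 in LLS and 2.45 in MMA, a difference of 0.49, with 0.54 to 1.04 from its other probes. Gli1, the target factor, gave 1.39 with its brightest probe and -0.50 with another. LLS had the highest Shh and Ptch1 levels of the 4. Osr2, an odd-skipped factor of oral mesenchyme, was 2.69 higher in T, while its relative Osr1 was 1.84 lower. Foxc2 was 2.87 lower, Foxd2 1.74 lower and Gli2 1.35 lower.

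Genes of papillae and taste placodes went both ways. Of 24 compared, 11 were higher in T and 4 lower by 2-fold or more. Besides Shh, Sox2, Foxa1 and Foxa2, the stem cell receptor gene Lgr6 was 4.13 higher with 0.95 from its other probe, Egfr 3.31 higher and Bmp7 1.48 higher. The 4 lower ones were Bmp4 (-2.21), Wnt5a (-1.95), Fgf10 (-1.89, with 0.11 from its other probe) and Lef1 (-1.27, with 0.29 from its other probe). Bmp4, a ligand of both layers, had levels of 1.92 in T, 4.13 in LMA, 3.16 in LLS and 3.16 in MMA. Wnt5a, a ligand of outgrowing mesenchyme, had levels of 0.09 in T, 2.05 in LMA, 1.98 in LLS and 2.12 in MMA. Both were lower in T than on the other 3 arrays.

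Of 30 Wnt pathway genes, 7 were higher in T and 9 lower by 2-fold or more, beside 13.9% and 7.22% of all genes. The higher ones included the ligands Wnt10a (3.95), Wnt4 (3.25) and Wnt16 (at least 3.01). The lower ones included Rspo2, a potentiator of the receptor, which gave -4.15 with its brightest probe and -0.30 with another. Dkk1, a secreted antagonist, had levels of -0.70 in LMA, -3.84 in LLS and -0.22 in MMA (not well above background in T) and was at least 3.50 lower. Axin2, a general target of the pathway, had levels of -2.06 in T, -0.46 in LMA, -1.42 in LLS and -1.63 in MMA, a difference of -1.59. The 3 ligands named were picked from the higher genes, and the ligand Wnt5a of the same list was at least 2-fold lower in T. Ligands of the list thus went both ways, and the target gene Axin2 was lower.

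Among 29 genes of the BMP, TGF-beta and activin families, 9 were higher in T and 9 lower by 2-fold or more. The BMP antagonist Chrdl1 was 3.21 higher, and Chrdl2 2.12 lower. The joint factors Gdf5 and Gdf6 were 1.80 and at least 2.80 lower. The direct BMP targets Id2 (-1.62) and Smad6 (-1.70) were lower, while Id1 (-0.60) and Id3 (-0.48) stayed within 2-fold.

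Of 22 FGF pathway genes, 10 were higher in T and 2 lower by 2-fold or more, the median being 0.89. The carrier protein gene Fgfbp1, known from squamous epithelium, was at least 6.70 higher. Fgfr3 was 3.84 higher and Fgf7, a mesenchymal ligand for epithelium, 2.90. Fgf8, the ligand of early arch ectoderm, had levels of -2.72 in T, -1.80 in LMA, -2.14 in LLS and 2.34 in MMA, a difference of -0.92: it was high in MMA alone. Fgf15 was at least 3.19 lower in T.

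Among retinoic acid genes, the synthesis enzymes differed in opposite directions. Cyp26a1, which degrades retinoic acid, had levels of 2.04 in T, -1.15 in LLS and -1.86 in MMA (not well above background in LMA) and was at least 6.69 higher in T. Aldh1a3, a synthesis enzyme, had levels of 0.95 in T, -2.58 in LMA and -3.89 in LLS (not well above background in MMA), a difference of 3.54. Aldh1a2, another synthesis enzyme, had levels of -0.38 in T, 2.35 in LMA and 2.50 in LLS (not well above background in MMA), a difference of -2.73. Aldh1a3 was thus high in T and Aldh1a2 on both E11.5 arrays. Cyp26b1 was 1.35 lower in T and the binding protein gene Crabp1 2.59 lower. Over the 17 genes compared, 5 were higher in T and 4 lower by 2-fold or more.

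In the Notch pathway 7 of 19 genes were higher in T and 2 lower by 2-fold or more, led by the ligand Jag2 (2.93) and the effector Heyl (2.56). Of 29 axon guidance and neurotrophin genes, 7 were higher in T and 5 lower by 2-fold or more, beside 13.9% and 7.22% of all genes. The secreted cues Sema3c and Ntn1 were 3.94 and 3.79 higher. Ntf3, a neurotrophin of sensory neurons, had levels of -0.02 in T, 1.56 in LMA, 2.08 in LLS and 0.99 in MMA, a difference of -1.58, and the Eph receptor gene Epha4 was 1.77 lower.

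Tooth-forming genes also went both ways: 9 of 20 were higher in T and 5 lower by 2-fold or more. Besides Pax9, Shh and Wnt10a, the higher ones included the ligand gene Eda (2.36) and the BMP and Wnt antagonist Sostdc1 (2.05). The 5 lower ones were Msx1, Msx2, Bmp4, Lef1 and Barx1, a homeobox factor of molar mesenchyme with a difference of -1.90. Of the 22 genes listed, 19 are members of other lists.

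Of 17 neural crest genes, 3 were higher in T and 6 lower by 2-fold or more. Twist1 and Twist2, helix-loop-helix factors of mesenchyme, were 2.48 and 2.69 lower, and Snai1 1.71 lower. Twist1 had levels of 0.10 in T, 2.58 in LMA, 2.16 in LLS and 2.37 in MMA, high on the 3 arch arrays. Snai2 (-0.08) stayed within 2-fold. Sox10, the factor of glia and melanocytes, differed by 0.96.

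Connective tissue showed its largest difference in the small leucine-rich proteoglycans, which bind collagen fibrils: 8 of 11 were higher in T by 2-fold or more, 0 were lower, and the median was 2.65 (1.72 with normexp background and 1.62 with no filter and no floor). Dcn, decorin, had levels of 6.03 in T, 1.11 in LMA, 2.23 in LLS and -1.72 in MMA, a difference of 4.92. Aspn, asporin, had levels of 1.50 in T and -3.99 in LMA (not well above background in LLS and MMA), a difference of 5.49. Ogn and Lum were 3.15 and 2.10 higher, while Bgn, biglycan, differed by -0.26. For all 8, LLS and MMA were nearer to LMA than to T. Among 31 fibroblast collagen and matrix genes, 10 were higher in T and 2 lower by 2-fold or more. Mfap5, a microfibril protein, was 5.0 higher, Postn, periostin, 3.17, and Eln, elastin, 2.22. The main fibril collagens differed less: Col1a1 was 1.75 higher, and Col3a1 (0.38) stayed within 2-fold. Pdgfra, the receptor of mesenchymal precursors, had levels of 2.69 in T, 4.22 in LMA, 3.82 in LLS and 2.84 in MMA, a difference of -1.53.

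Of 20 tendon genes, 9 were higher in T and 4 lower by 2-fold or more. Scx, scleraxis, the factor of tendon progenitors, had levels of 2.61 in T, 4.44 in LMA, 2.72 in LLS and -0.31 in MMA, a difference of -1.83. Thbs4, a thrombospondin of the muscle-tendon junction, had levels of 4.92 in T, -0.49 in LMA and 0.42 in LLS (not well above background in MMA), a difference of 5.41. Lox, the collagen cross-linking enzyme, had levels of 2.25 in T, -2.71 in LMA, -1.35 in LLS and -4.12 in MMA, a difference of 4.95. Scx was highest in LMA, and Thbs4 and Lox in T. Chodl, chondrolectin, was 7.86 higher, with 3.09 from its other probe. Tnmd, tenomodulin, was near the floor (-3.74 in T and -4.15 in LMA (not well above background in LLS and MMA)).

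In cartilage 3 of 16 genes compared were higher in T and 5 lower by 2-fold or more, beside 13.9% and 7.22% of all genes. Another 6 were above background on neither array. Col9a1 gave -4.41 with its brightest probe and 0.32 with another. Col2a1, the main cartilage collagen, had levels of 0.55 in T, 2.50 in LMA, 2.37 in LLS and 2.17 in MMA, a difference of -1.95. Col9a2 was 2.03 lower. Sox9, the factor of cartilage, had levels of -1.28 in T, -1.72 in LMA, -1.16 in LLS and 0.60 in MMA, a difference of 0.44. Col2a1 was lower in T than on the other 3 arrays. Of 14 bone genes compared, 6 were higher in T and 3 lower by 2-fold or more. The mineralisation genes Ibsp and Spp1 were at least 4.11 and at least 3.10 higher, from no signal above background in LMA to levels of -0.55 and -1.56 in T. Sp7, the osteoblast factor, differed by -0.37.

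Cell division genes were lower in T, by small amounts. Of 36 compared, 34 were lower, 8 of them at least 2-fold against 7.22% of all genes, 0 were higher by that much, and the median was -0.63. Mki67 had levels of 4.95 in T, 5.59 in LMA, 5.37 in LLS and 5.42 in MMA, a difference of -0.64. Mcm5, of the replicative helicase, had levels of 3.43 in T, 4.69 in LMA, 4.64 in LLS and 5.50 in MMA, a difference of -1.26. Plk1, a mitotic kinase, had levels of 3.63 in T, 5.02 in LMA, 4.80 in LLS and 5.70 in MMA, a difference of -1.39. Mcm5 and Plk1 were highest in MMA, close to each other in LLS and LMA, and lowest in T. Ccnd1, a cyclin of cell cycle entry, was 2.44 lower. Of 14 inhibitors of division, 5 were higher in T by 2-fold or more and 0 lower. Cdkn1a, p21, had levels of 1.89 in T, -0.18 in LMA, -0.92 in LLS and 0.29 in MMA, a difference of 2.07. Cdkn2c was 2.69 higher, and Cdkn1c, p57, 0.45 higher.

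Genes of the Lin28 axis, which marks early embryonic cells and is shut down as tissues mature, had a median of -0.91, 9 of 18 being lower in T and 1 higher by 2-fold or more. Lin28b had levels of -2.74 in T, 1.46 in LMA, 1.50 in LLS and 5.48 in MMA, a difference of -4.21. Hmga2, a target of let-7, gave -1.88 with its brightest probe and -2.22 to -0.12 with others. Mycn had levels of 1.32 in T, 3.48 in LMA, 3.98 in LLS and 5.45 in MMA, a difference of -2.16. For all 9 lower genes both LLS and MMA were nearer to LMA than to T. Lin28a had levels of -2.42 in T, -1.80 in LMA, -2.02 in LLS and 4.41 in MMA and was high in MMA alone. Igdcc3 was 4.99 lower, with 2.04 from its other probe. The ligand gene Igf2 (0.44) and the imprinted RNA H19 (0.31) stayed within 2-fold, with 3 of 18 insulin-like growth factor genes (beside 13.9% of all genes compared) higher in T by 2-fold or more: the binding proteins Igfbp6 (5.75), Igfbp7 (3.71) and Igfbp5 (1.28). Of 25 ribosomal protein genes, 0 differed by 2-fold, and the median was 0.31 (0.05 in the deposited value table and with quantile normalization).

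Of 21 immediate early and heat shock genes, 11 were higher in T by 2-fold or more against 13.9% of all genes compared, and 0 lower against 7.22%; the median was 1.06. These genes respond to handling of tissue within minutes to hours. Fos had levels of -1.28 in T, -3.06 in LMA and -2.86 in LLS (not well above background in MMA), Egr1 levels of 0.20 in T, -1.95 in LMA and -2.45 in LLS (not well above background in MMA), and Hspa1b levels of 0.47 in T, -2.57 in LMA, -1.75 in LLS and -3.17 in MMA. The differences were 1.78, 2.15 and 3.04, while Dusp1 differed by 0.33. Their part in the other differences was not tested. Of 24 hypoxia and glycolysis genes, 2 were higher in T and 2 lower by 2-fold or more, beside 13.9% and 7.22% of all genes. Slc2a3, a glucose transporter, gave -1.95 with its brightest probe and -0.10 with another.

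**Figure D3:**
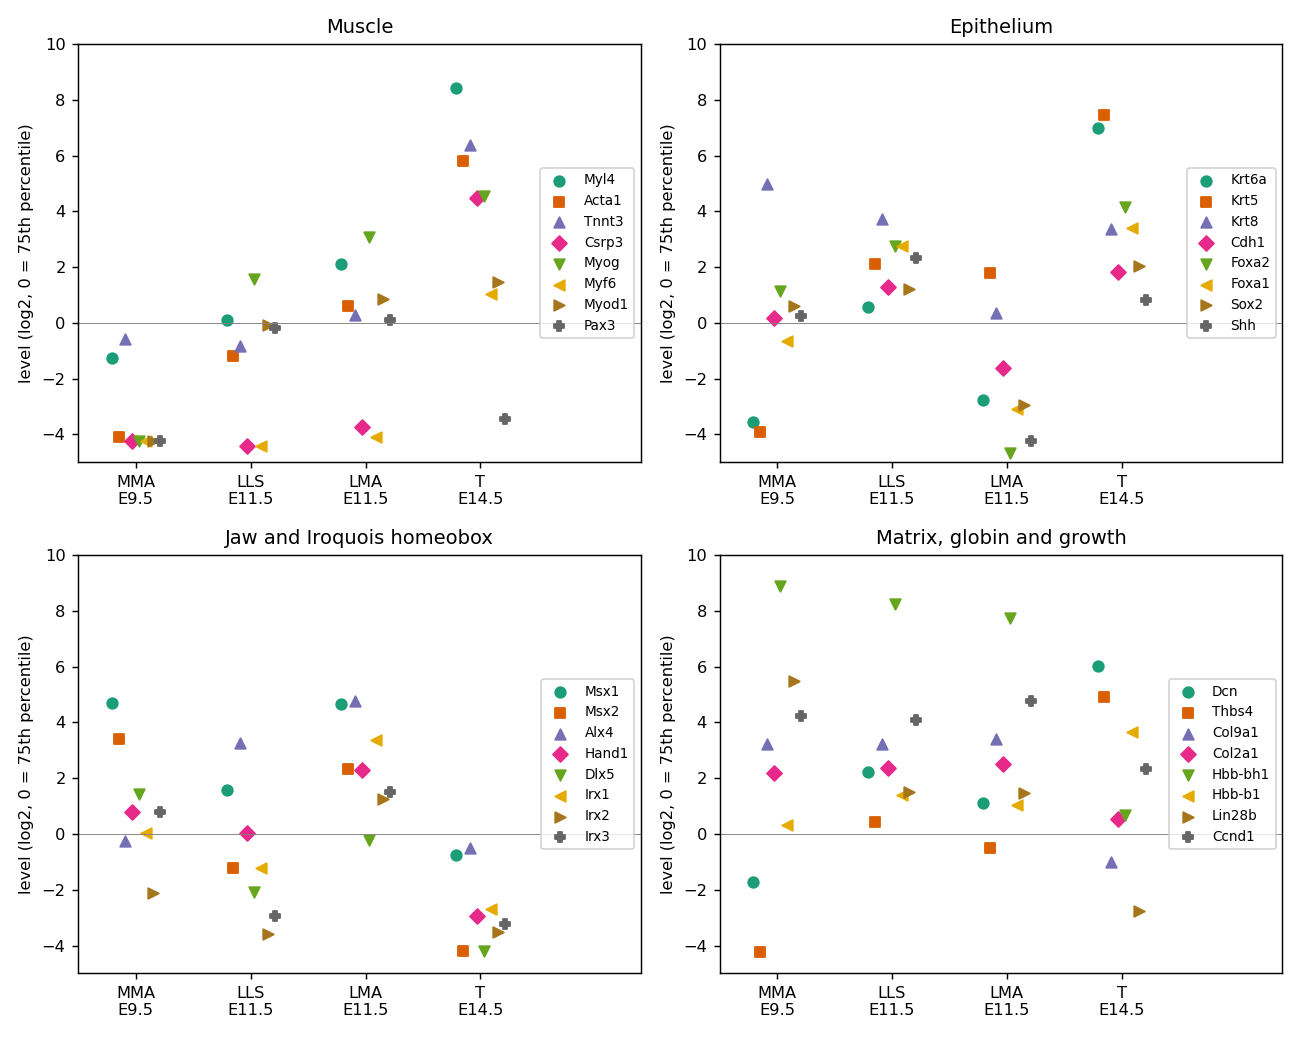
Levels (log2, 0 at the 75th percentile of the array) of 32 genes on the 4 arrays, in 4 panels of 8 genes; each point is 1 array, and a value not well above background is drawn at the lowest well-above-background level of its array. Muscle genes such as Acta1 are highest in T, Shh and Foxa2 are high in T and LLS and low in LMA, Irx1, Irx2 and Irx3 are highest in LMA, and Hbb-bh1 is low in T alone.

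Primitive globins were lower in T and adult beta globins higher. The 3 primitive globins, made by the yolk sac wave of red cells, were all lower in T by 2-fold or more, and the median was -6.12. Hbb-bh1 had levels of 0.67 in T, 7.74 in LMA, 8.25 in LLS and 8.88 in MMA, a difference of -7.08, with -2.25 from its other probe. Hba-x had levels of 0.97 in T, 7.09 in LMA, 6.83 in LLS and 7.37 in MMA, a difference of -6.12. Hbb-y had levels of 6.46 in T, 8.89 in LMA, 8.93 in LLS and 8.88 in MMA, a difference of -2.44. T had the lowest level of the 4 arrays for all 3, but Hbb-y was still bright there. Hbb-b1 and Hbb-b2, adult beta globins, were 2.63 and 2.57 higher in T, while the adult alpha globins Hba-a1 (0.11) and Hba-a2 (0.13) were near the top of the signal range on all arrays. Globin genes of a cluster are close copies, so their probes may share signal. The factors of immature red cells were lower in T: Gata1 at least 3.68, Klf1 2.61, Tal1 2.57 and Nfe2 at least 4.29. Over 14 erythroid markers, 3 were higher in T and 7 lower by 2-fold or more, and the median was -0.96. Their summed signal was 1102 times the 75th percentile in T and 798 times in LMA. Such a sum follows its brightest members, here the adult globins, and not the list as a whole.

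All 14 endothelial markers were lower in T, 10 of them by 2-fold or more against 7.22% of all genes compared; the median was -1.23, and all 14 were above background on both arrays. Their summed signal was 18.3 times the 75th percentile in T, 44.0 in LMA, 23.8 in LLS and 39.2 in MMA. Kdr, the main receptor for vascular growth factor, had levels of 1.26 in T, 3.0 in LMA, 1.71 in LLS and 2.70 in MMA, a difference of -1.73. Cldn5, of endothelial tight junctions, had levels of 0.15 in T, 1.55 in LMA, 0.13 in LLS and 1.23 in MMA, a difference of -1.40. LLS lay near T for both. Lyve1, a marker of lymphatic vessels and some macrophages, was at least 3.20 higher in T, while Prox1, the lymphatic factor, differed by -0.14. Pericyte genes Cspg4 and Kcnj8 were 2.67 and 2.61 higher, and Pdgfrb 1.67 lower, among 11 smooth muscle and pericyte markers of which 6 were higher and 3 lower by 2-fold or more.

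Macrophage markers were at least 2-fold higher in T at 7 of 15 and lower at 0. Their summed signal was 23.1 times the 75th percentile in T and 15.1 times in LMA. Mrc1, a scavenger receptor of tissue macrophages, had levels of 0.25 in T, -1.25 in LMA and -1.48 in LLS (not well above background in MMA), a difference of 1.49, while Csf1r, the receptor that defines the lineage, differed by 0.44. Of 5 mast cell markers compared, 3 were higher in T by 2-fold or more and 2 stayed within 2-fold. Their median was 2.13, but 0.18 over members above background on both arrays. The higher ones included 2 bounds, the granule proteases Cpa3 and Cma1, at least 3.04 and at least 2.71 higher. Neither had signal above background in LMA. Of 11 Schwann cell markers, 7 were higher in T and 0 lower by 2-fold or more, with Fabp7 3.79 higher. Of 16 neuron markers, 7 were higher in T and 2 lower by 2-fold or more. Prph, peripherin of peripheral neurons, was at least 5.09 higher. Gap43, of growing axons, was 1.39 lower. Summed neuron signal was 43.5 times the 75th percentile in T and 42.5 times in LMA. Fabp4, a lipid carrier of fat and capillary cells, was at least 6.46 higher, and 4 of 5 adipocyte markers compared were higher in T and 1 lower by 2-fold or more.

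The extraction text of the labels mentions cerebellum, so its markers were listed. Of 13, 8 were above background on neither T nor LMA, and of the 5 compared 0 were higher in T by 2-fold or more and 1, Pcp2, was lower by that much. Pcp2, known from Purkinje and retinal bipolar cells, had levels of -3.51 in T, 1.62 in LMA, 0.36 in LLS and -3.17 in MMA. Their summed signal was 0.920 times the 75th percentile in T and 3.80 times in LMA. For salivary gland 5 markers were compared, 2 of them bounds higher in T by 2-fold or more, and for melanocytes 1 of 5 was higher and 0 lower by that much.

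Several of the genes with the largest differences belong to none of the lists. Serpinb5, maspin, a serpin of epithelial cells, had levels of 4.38 in T, -3.60 in LMA and 0.60 in LLS (not well above background in MMA), a difference of 7.98. Cbr2, a carbonyl reductase, had levels of 5.10 in T, -2.15 in LMA and 1.42 in LLS (not well above background in MMA), a difference of 7.25. Krtdap, a peptide of differentiating keratinocytes, was 7.55 higher, and Tceal7 7.08 higher. The bounds toward T included S100a14 (at least 8.21), a calcium-binding protein of epithelium, Arhgap36 (at least 7.88), Dmkn (at least 7.43), dermokine of skin, and Atp1b4 (at least 7.41), of muscle nuclei. All 4 were above background on no array other than T. Toward LMA, the chemokine gene Cxcl14 gave -7.23 with its brightest probe and 0.12 with its other probe. Tac2, the neurokinin B precursor, had levels of -3.87 in T, 1.73 in LMA, -0.82 in LLS and -1.11 in MMA, a difference of -5.59. Mab21l2, a factor of eye and body wall development, had levels of -2.67 in T, 2.47 in LMA, -0.32 in LLS and 0.36 in MMA, a difference of -5.14. Mogat2, a lipid synthesis enzyme, was at least 6.09 lower and the nuclear receptor gene Nr1h5 at least 5.20 lower. The agouti gene, symbol a, gave a bound of -5.78, with -3.88 to -0.31 from its other probes.

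Probes of the genes with the largest differences had these positions in mouse build mm9, per the file headers. The Krt6a probe lay on the minus strand of chromosome 15 at 101520361 to 101520420. The Csrp3 probe lay on the minus strand of chromosome 7 at 56086063 to 56087977, a span longer than the probe. The Foxa2 probe lay on the minus strand of chromosome 2 at 147868669 to 147868728. The Msx2 probe lay on the minus strand of chromosome 13 at 53562318 to 53562377. The Irx1 probe lay on the minus strand of chromosome 13 at 72095735 to 72095794. The Hbb-bh1 probe lay on the minus strand of chromosome 7 at 110990209 to 110990268. Exon and UTR annotation of that build was not used here.

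LLS at E11.5 helps place the pair, as values only, because T and LMA differ in stage and region. Of the 2478 genes at least 2-fold higher in T, LLS was nearer to LMA for 2023 (81.6%) and nearer to T for 455. Of the 1286 genes higher in LMA, LLS was nearer to LMA for 997 (77.5%) and nearer to T for 289. By set, LLS was nearer to LMA for 99 of the 100 muscle genes higher in T, and nearer to T for 33 of the 55 epithelial genes and for 7 of the 10 endothelial genes lower in T. MMA at E9.5 was nearer to LMA for 83.7% of the genes higher in T and for 60.4% of those higher in LMA. By set, MMA was nearer to LMA for 98 of the 100 muscle genes, 37 of the 55 epithelial genes and 7 of the 10 endothelial genes. Each count shares the T and LMA arrays with the choice of the genes.

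**Figure D4:**
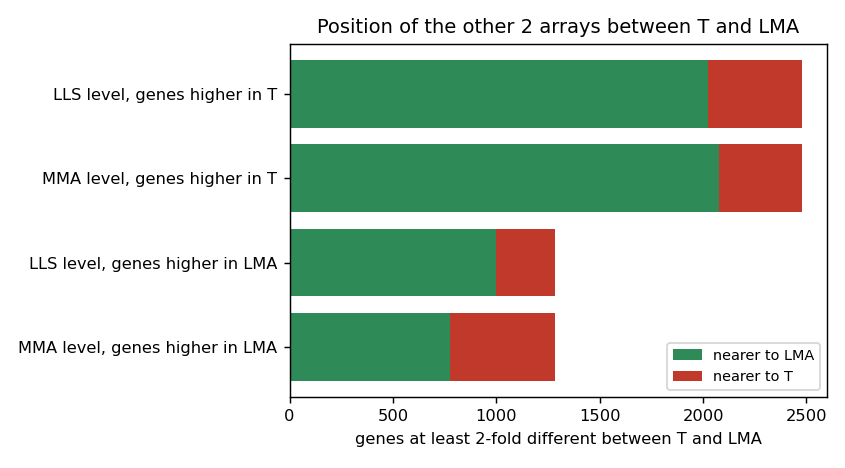
Number of genes at least 2-fold different between T and LMA whose level on the LLS or MMA array was nearer to LMA (green) or nearer to T (red), for genes higher in T and genes higher in LMA. The LLS bar of genes higher in T has 2023 genes nearer to LMA and 455 nearer to T.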

How the data were processed

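Single-colour arrays of 4 pooled mouse tissues were read from the scanner files, 1 array per tissue on 1 slide. Per the labels, RNA came from a TRIzol extraction with a Promega clean-up, and their extraction text names cerebellum while the sample labels name jaw and tongue tissue. The authors deposited intensity values from the Agilent Feature Extraction software, version 10.7.1.1 per the file headers (9.5.1.1 per the submitters' processing notes), which subtracted background and gave dim spots surrogate values. Scaling between arrays is not given in those headers.

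Flagged spots were left out, repeated spots averaged, and 56605 probes named through RefSeq accessions and current symbols: 33877 by accession, 9468 by symbol, 490 by an older symbol and 1575 by the symbol in the file, with 11191 left unnamed. The 75th percentile of each array was subtracted from log2 signal. The probe of a gene was the brightest over the 4 arrays, and a gene was compared where that probe was well above background on T or LMA. With 1 array per tissue no test was possible, and at least 2-fold counted as a difference. Genes named were the 12 highest and 12 lowest above background on both arrays, the 5 largest bounds in each direction and any list member, without clone names and gene models.

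The comparison, the 36 gene lists and the 15 marker lists (956 of 959 entries found, as 866 different genes) were chosen with earlier results of these data known, and were described by counts and medians. Counting was tested on simulated data in which every probe was set above background, so the filter, the floor and the bounds were not tested. Alternatives covered scaling (3 more between-array methods and a percentile of detected probes), normexp background, the filter and floor, the choice of probe, 4-fold in place of 2-fold and the deposited value table. That table holds log2-transformable intensity of 52141 probes, deposited by the authors with its normalization not given in the sources used here. It gave 2500 genes higher in T and 1391 higher in LMA, beside 2502 and 1394 with quantile normalization. These 2 alternatives are thus not separate checks. Python 3.11.15, R 4.3.3 and limma 3.58.1 were used.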

Additional observations from a re-analysis of the deposited data

Results flagged for a closer look

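Probes without a current gene name took no part in the gene counts. Of 11191 such probes, 5762 were well above background on T or LMA. At least 2-fold higher in T were 356 of them (6.18%) and at least 2-fold higher in LMA 346 (6.01%), with differences from -4.96 to 5.63. They were set apart because they hold signal outside the comparison of named genes, and their genes were not looked for further.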

How the results depend on the processing

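The count of genes higher in T was 2478 and lay between 1721 (normexp background) and 3479 (no filter and no floor) at 2-fold, with 1172 at 4-fold. The count higher in LMA was 1286 and fell to 800 with normexp background and to 258 at 4-fold, and was 2521 with no filter and no floor. Cyclic loess shifted the median of all genes by 0.17 toward T and gave 2960 and 948 genes, so that 75.7% of the 2-fold genes were higher in T, beside 65.8% in the main setting; median scaling gave 59.9% while 64.3% were higher in T in the deposited value table. Of the 21 list and marker medians of at least 1 in size, all 21 kept their direction in each of the 9 alternatives to scaling, background, filter, probe and source, and between 17 (normexp) and 21 stayed at least 1 in size. All 34 genes named for their rank kept direction and stayed at least 2-fold in the 8 alternatives without the filter for both arrays. With that filter 24 of 24 did so. The setting with no filter and no floor put measured values in place of the bounds. The 34 genes were picked for the size of their differences on the same arrays, so that outcome was largely set by the choice. The filter for both arrays leaves their values unchanged and is no check on them. The size of a difference depended on background handling. With normexp background Csrp3 and Cox8b were 6.80 and 6.49 higher in T, beside 8.23 and 8.47 in the main setting. The log2 error of a difference does not cover that choice. Medians of 8 lists (BMP and TGF-beta, Hedgehog, cartilage, neural crest, retinoic acid, tooth-forming, cerebellum and salivary gland) changed sign under some alternative, and no direction was given for them; that of the salivary gland markers was 0.96 and ran from -0.15 to 1.66. No paired analysis was possible because each tissue had 1 array. The floor of -4.20 in T and -4.66 in LMA limits what can be said of dim probes, and 1410 genes were above background in LMA only and 876 in T only.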

Other observations

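Genes outside all lists, chosen after their values were seen, add to the account. Toward T, the plakin gene Eppk1 of epithelium differed by 6.38, the annexin genes Anxa1 and Anxa8 by 5.72 and 5.66, Col7a1, which forms the anchoring fibrils under basal cells, by 5.41, and the water channel gene Aqp3 by 5.68. Other probes of Anxa1 gave 2.52 to 5.60. Sim2, a helix-loop-helix factor, differed by 6.65, with 0.72 to 6.39 from its other probes. The angiotensin receptor gene Agtr2 had levels of 6.36 in T, 0.32 in LMA and 1.89 in LLS (not well above background in MMA), a difference of 6.05. Phox2a, a homeobox factor of autonomic neurons, was at least 5.05 higher in T, and the neuropeptide gene Vip at least 4.65 higher. Neither was above background on the other 3 arrays.

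Toward LMA, the T-box gene Tbx4 had levels of -2.88 in T, 1.33 in LMA and -1.72 in LLS (not well above background in MMA), a difference of -4.21. The Wnt antagonist gene Frzb differed by -4.03, with -4.28 from its other probe, the zinc finger gene Gata3 by -3.68, Ebf3 by -3.46 and Prdm16 by -3.29. The platelet chemokine gene Ppbp had levels of -3.39 in T, 0.0 in LMA, -0.03 in LLS and -3.79 in MMA, and Clec1b, a platelet receptor, levels of -3.56 in T, -0.81 in LMA, -0.92 in LLS and 1.64 in MMA. Rhd, a red cell antigen, differed by -3.82.

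Genes of the Y chromosome and Xist, looked at after Uty was seen among the lower genes, were also unequal between the pools. Eif2s3y had levels of -0.77 in T, 0.03 in LMA, 0.22 in LLS and -0.09 in MMA, Kdm5d levels of -1.90 in T, -0.12 in LMA, -0.03 in LLS and -0.47 in MMA and Ddx3y levels of -2.58 in T, -1.80 in LMA, -1.83 in LLS and -2.41 in MMA. Their differences were -0.80 (-1.02 from another probe), -1.79 (-1.65 to -0.15 from others) and -0.78. Uty differed by -2.16, with -0.94 from its other probe, and Xist by 0.50. The sex of the pooled embryos is not given in the labels.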
